A study of Homo sapiens with 21 samples.

Results

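Untreated SK-MEL-147 cells, a human melanoma line grown in culture, were compared with the same cells given 1 of 5 small molecules whose expression responses are weak: TP-472, GSK-591, GSK-484, MS023 or UNC0642. All 3 libraries labelled Untreated and all 15 libraries of these compounds entered, 3 per compound and 18 of the 21 libraries of the series. The 3 JQ-1 libraries stayed outside the comparison. Among them are inhibitors of enzymes that methylate arginine (GSK-591 on PRMT5, MS023 on the type I family) or histone lysine (UNC0642 on EHMT2 and EHMT1), an inhibitor of the deiminase PADI4 (GSK-484) and a bromodomain ligand of BRD9 and BRD7 (TP-472). Each compound group had equal weight, so the shift reported for a gene is the mean log2 level of the 5 compound groups minus that of the untreated group. The sources used here give no dose, time, vehicle or harvest order, and anything that all treated samples shared and the untreated ones lacked cannot be told apart from the compounds.

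The level of a transcript in poly-A RNA sequencing is read from the fragments that were copied, amplified and sequenced. Amplification and sequencing recover fragments rich in G and C (GC content) to a varying extent, and broken RNA with poly-A selection recovers the far 5′ part of long transcripts less well, so libraries can differ in ways that follow the base composition or length of a transcript and not its gene. A read that matches more than 1 gene is divided between them by the counting model, here RSEM, which gives expected counts that need not be whole. Such division affects near-identical gene copies and read-through transcripts, which join the exons of 2 neighbouring genes.

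The libraries held 20978182 to 78776788 expected counts in all, and the untreated ones 35089548 to 47741066. Ribosomal RNA genes took 4.99 to 10.6% of them, and neither the total nor the ribosomal share separated untreated from treated libraries (two-sided exact permutation p = 0.92 and 0.248). The labels call the replicates biological but do not say that they were separate cultures, and the p-values then reflect the spread of these samples alone, whether technical or not. All 12 markers of dedifferentiated melanoma reached 1 CPM (the count per library total, scaled by TMM factors) in every library, among them the receptor kinase AXL at a median of 1901 CPM. Of the 15 melanocyte lineage markers 4 did, among them the neural crest factor SOX10 at a median of 416 CPM, while the pigment genes TYR, PMEL and MLANA stayed at or under 0.378 CPM. The summed markers of other cell types overlapped between untreated and treated libraries: 1.501 to 1.753 against 1.226 to 2.028 CPM for 8 endothelial markers, 13.34 to 14.45 against 13.61 to 16.08 CPM for 10 fibroblast markers, and 130.0 to 147.6 against 121.2 to 165.8 CPM for 12 immune markers, nearly all of the last from CD68, a lysosomal protein gene. The leukocyte genes PTPRC and CD3E had at most 3 counts in any library, and the matrix gene DCN had none.

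These are bulk libraries, in which fewer cells of a type and less RNA per cell cannot be told apart. With the counts as deposited, 5601 of 14949 genes tested (37.5%) differed between treated and untreated cells at a Benjamini-Hochberg adjusted p under 0.05 in edgeR's quasi-likelihood test. The count was 2704 higher (18.1%) and 2897 lower (19.4%) in treated cells. The changes were small, with a median of 1.14-fold among the genes called. A shift of at least 1.5-fold was fitted for 341 genes (2.28%), of which 104 were called. No value of the 15 treated libraries overlapped the 3 untreated ones for 1537 genes (10.3%). When the call required more than a 1.2-fold change, 9 genes were left, and 3461 were called when the 5 compounds were fitted as 1 group of 15. The count was 3313 without Untreated replicate 1.

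Much of this broad shift followed transcript GC content. In each library the deviation of every gene from its mean over the 18 libraries was regressed on the GC content of its longest GENCODE 29 transcript. The slope was -0.177, -0.0946 and -0.113 log2 per 10 percentage points of GC in Untreated replicates 1, 2 and 3, so that GC-poor genes were relatively high there. Among the 15 treated libraries the slope ran from -0.0358 to 0.126 with a median of 0.0181. Untreated replicate 1 had the steepest slope of all, and no treated library reached into the untreated range. The means were -0.128 ± 0.0434 (SD, n = 3) and 0.0256 ± 0.0436 (SD, n = 15), a difference of 0.154 (exact permutation p = 0.00123, the smallest that 816 assignments allow, adjusted p = 0.00246 over 4 slopes, two-sided). The compound means were 0.0779 for MS023, 0.0347 for GSK-591, 0.0262 for TP-472, 0.00981 for GSK-484 and -0.0205 for UNC0642, and the libraries of neighbours in this order overlapped. All of the 5 compound means lay above the highest untreated slope. The permutation took the 15 treated libraries as independent, although each compound gave 3, so its p does not measure variation between treatments.

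**Figure D1:**
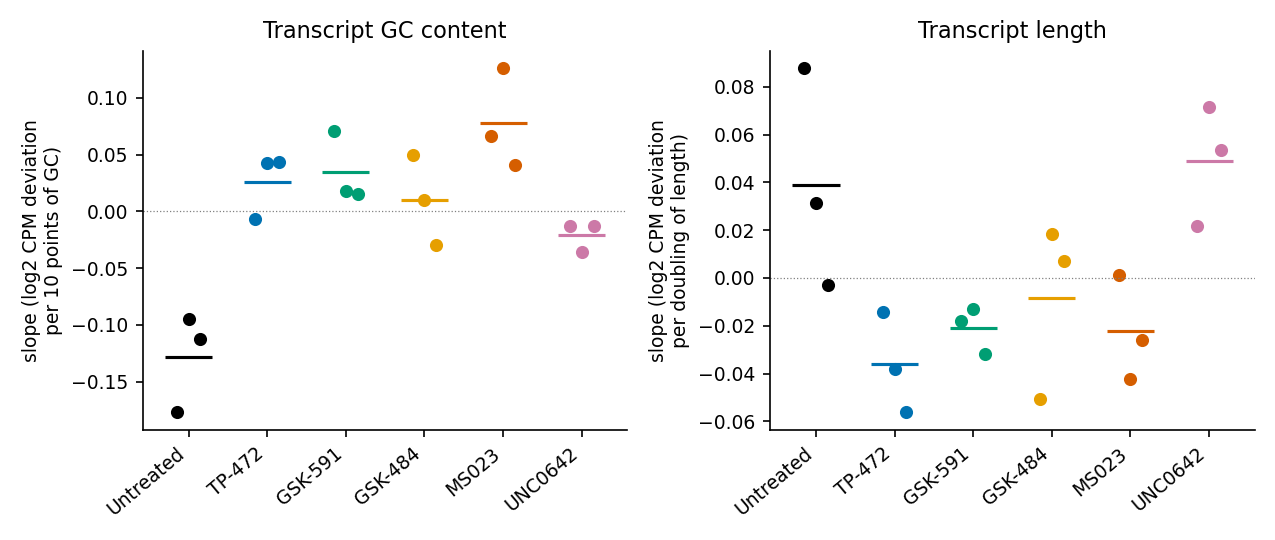
Slope of the log2 CPM deviation on transcript GC content (left, per 10 percentage points) and on transcript length (right, per doubling) in each of the 18 libraries, with 1 point per library and a line at the mean of each group. The 3 untreated libraries lie below all 15 treated ones for GC content, while for length the groups overlap and Untreated replicate 1 is the highest.

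Genes were ranked by GC content and cut into 10 equal bins. The bin with the lowest GC content (median 37.2%) had a median shift of -0.20 log2, and 66.3% of its 1403 genes were called lower in treated cells. The bin with the highest GC content (median 64.2%) had a median shift of 0.24, and 62.9% of its 1403 genes were called higher. The medians of the bins between them rose in order, and that of the bin around 50.2% GC was 0.00. Over 14024 genes with a known sequence, Spearman's correlation between GC content and the shift was 0.728, a description across genes that share the same libraries. Splines of GC content took 39.45% of the variance of the shift over these genes and transcript length took 6.87%. Together they took 40.1%, and 75.3% among genes of at least 10 CPM, whose shifts carry less counting error. The mean expression level took 0.559%.

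**Figure D2:**
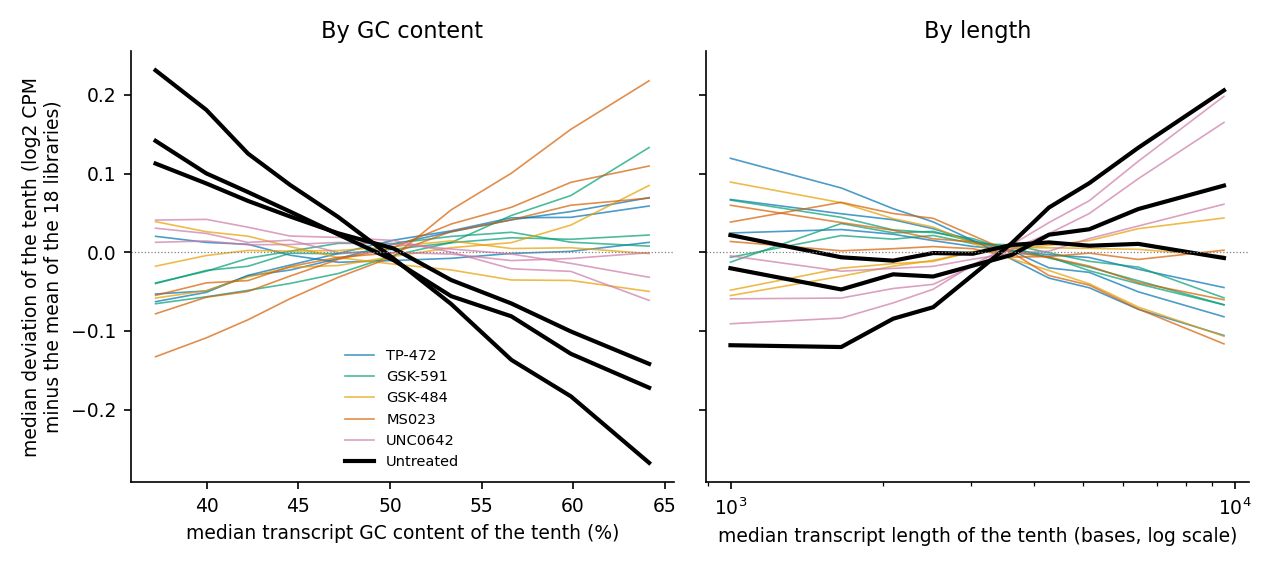
Median deviation of each library from the mean of the 18 (log2 CPM) in 10 bins of genes by transcript GC content (left) and length (right, log axis), with 1 line per library and the untreated libraries in thick black. In the bin of lowest GC content the 3 untreated lines lie above all others (0.11 to 0.23).

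The relation was stronger for the coding and 3′ untranslated parts of the transcript than for its start. Over the 11567 genes with all parts annotated, GC content of the coding part took 34.6% of the variance of the shift and that of the 3′ untranslated part 37.6%. GC content of the 5′ untranslated part took 3.12%. GC content of the promoter, a window around the start site, took 1.19% over the 10820 genes with a RefSeq promoter sequence.

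FAM173A and VPS13A, a GC-rich and a GC-poor gene of this relation, show the contrast in the middle 120 bases of their coding parts (GENCODE 29 transcripts on hg38), with every G and C in capitals. FAM173A lies on the plus strand at chr16:720581-722601 and VPS13A on the plus strand at chr9:77177353-77421541.
FAM173A: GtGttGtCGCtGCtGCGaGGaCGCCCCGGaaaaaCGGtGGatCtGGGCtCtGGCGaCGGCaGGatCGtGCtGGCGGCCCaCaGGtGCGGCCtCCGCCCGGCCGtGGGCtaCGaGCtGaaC
VPS13A: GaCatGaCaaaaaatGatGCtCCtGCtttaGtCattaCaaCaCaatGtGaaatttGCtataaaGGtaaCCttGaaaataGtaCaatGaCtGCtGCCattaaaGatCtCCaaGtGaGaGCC
G and C made up 84 of these 120 bases in FAM173A and 44 in VPS13A, and 71.5% and 37.0% of the longest transcripts. GC content varied along the genes, and the first 120 coding bases held 76.7% in FAM173A and 55.8% in VPS13A. This middle stretch was chosen after both ends had been looked at.

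FAM173A, a protein lysine methyltransferase gene, measured 7.95, 10.4 and 9.74 CPM in the untreated libraries and 9.46 to 16.4 CPM (median 11.9) in the treated ones. Its shift was 0.41 ± 0.11 log2 (SE) with an adjusted p of 0.00472 in edgeR as deposited. With the GC and length trends of each library removed from the edgeR fit, it was 0.16 (adjusted p = 0.158). VPS13A, which encodes a lipid transfer protein at membrane contacts, measured 56.2, 46.7 and 36.4 CPM in the untreated libraries and 27.6 to 54.0 CPM (median 34.3) in the treated ones. Its shift in edgeR went from -0.39 ± 0.09 (adjusted p = 0.00242) to -0.15 (adjusted p = 0.105). In Untreated replicate 1, the library with the steepest GC slope, VPS13A was highest of all 18 and FAM173A lowest. FBXL15 (61.7% GC), an adaptor of an E3 ubiquitin ligase, went from 0.45 to 0.26 (adjusted p = 0.0561), and CCDC106 (67.4% GC) from 0.41 to 0.13 (adjusted p = 0.131). FAM173A, VPS13A, FBXL15 and CCDC106 were chosen among genes called as deposited and not called with the trends removed. The loss of their calls was therefore fixed by the choice and gives no support.

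The slopes on transcript length overlapped between the groups. The length slope was 0.0879, 0.0312 and -0.00282 log2 per doubling in Untreated replicates 1, 2 and 3, and -0.0563 to 0.0717 in the treated libraries. Untreated replicate 1 was above all treated libraries and the other 2 untreated libraries among them, with UNC0642 at a mean of 0.0490 and the other 4 compounds at -0.0362 to -0.00839. The difference in means was -0.0465 (exact permutation p = 0.0674, adjusted p = 0.0899, two-sided), and -0.0101 with GC content in the same regression (p = 0.664). For GC content with length in the same regression it was 0.151 (exact permutation p = 0.00123). Without Untreated replicate 1, 2 or 3 the length difference was -0.02195, -0.05029 and -0.0673 (exact permutation p = 0.463, 0.103 and 0.0294, not adjusted). With genes cut into 3 equal bins of each feature, the median shift at low GC content was -0.11 for short, -0.13 for middle and -0.17 for long transcripts. At high GC content it was 0.17, 0.17 and 0.13.

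Gene lists of differing base composition are set here beside all genes tested, of which 18.1% were called higher and 19.4% lower as deposited and 4.63% and 3.37% with the trends removed. The 472 ZNF zinc finger genes tested, a family of DNA-binding proteins with GC-poor transcripts (median 43.2%), had 55 called higher (11.7%) and 106 called lower (22.5%) and a median shift of -0.08. With the trends removed the median was 0.00 and the calls were 11 higher and 7 lower of 470. Genes of mitosis and G2/M (median GC 43.2%) had 3 higher and 10 lower of 28 as deposited, and 3 and 1 with the trends removed. Enzymes of mRNA decay and poly-A tail metabolism (44.1% GC) went from 4 higher and 11 lower of 27 to 3 and 0. Genes of the integrated stress response (51.8% GC) went from 12 higher and 5 lower of 25 to 4 and 1. Of the 13 genes tested that encode targets of the compounds (54.99% GC), 7 were higher and 1 lower as deposited, and 2 and 1 with the trends removed. EHMT2, which encodes a target of UNC0642, went from 0.19 (adjusted p = 0.00165) to 0.03 (adjusted p = 0.696), and BRD9 from 0.13 (adjusted p = 0.000414) to 0.03 (adjusted p = 0.347). Without Untreated replicate 1 and with the trends removed, the calls were 1 higher and 1 lower for ZNF genes, 0 and 1 for G2/M, 2 and 0 for mRNA decay, and 1 and 0 for the stress response. Over all genes tested the median was -0.01 as deposited and 0.00 with the trends removed.

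Of the target genes, PRMT1, PRMT3 and BRD7 were called with the trends removed, and 0 of the 13 without Untreated replicate 1. PRMT1, the main type I arginine methyltransferase and a target of MS023, measured 163.2, 189.3 and 190.1 CPM untreated and 187 to 248.7 CPM (median 217.1) treated. Its lowest value was in Untreated replicate 1, the treated range began below the other 2 untreated values, and it rose by 0.13 ± 0.03 with the trends removed (adjusted p = 0.0166 in edgeR) and 0.25 as deposited. Against the shared untreated libraries MS023 gave 0.23 and GSK-484 0.02. PRMT3, another enzyme of that class, measured 35.5, 31.3 and 32.5 CPM untreated and 23.8 to 30.5 CPM (median 28.2) treated, without overlap in CPM. With the trends removed the groups overlapped, and it fell by 0.14 (adjusted p = 0.0308) and by 0.24 as deposited. BRD7, a bromodomain target of TP-472, was called at 0.10 with the trends removed (adjusted p = 0.0291) and was at -0.01 as deposited (adjusted p = 0.804).

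**Figure D3:**
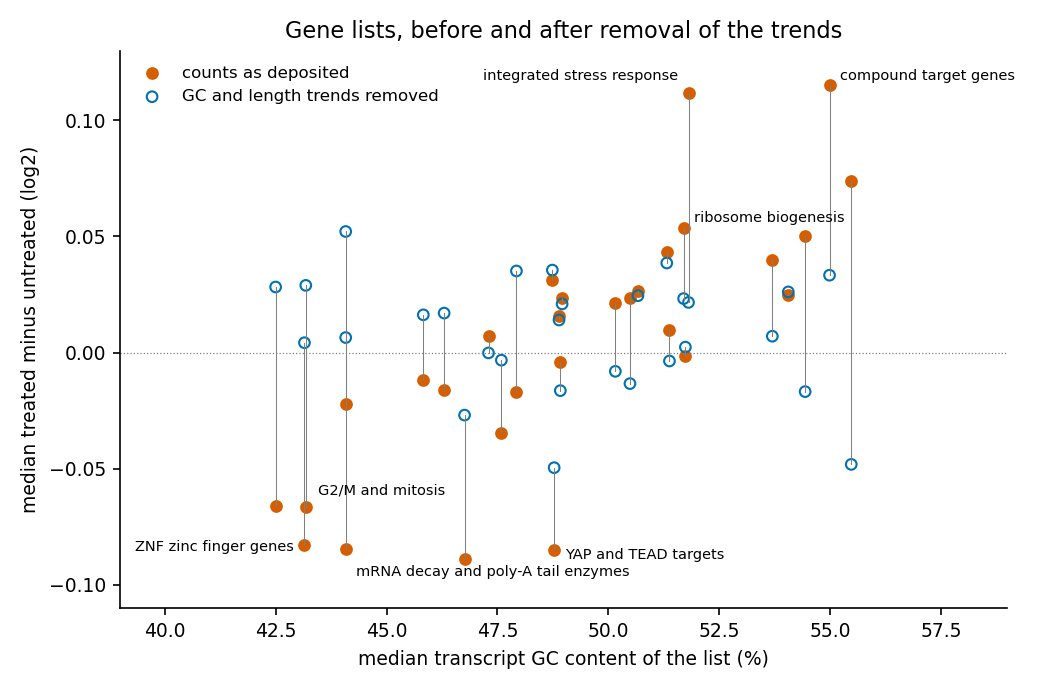
Median shift (treated minus untreated, log2) of each of 29 gene lists against the median transcript GC content of its genes, as deposited (filled) and with the GC and length trends of each library removed (open), joined by a line. As deposited the medians run from -0.09 for Sm and LSm proteins (46.8% GC) to 0.12 for the compound targets, and with the trends removed they lie between -0.05 and 0.05.

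The trend of each library on GC content and length was then removed as an offset before the same test. The common coefficient of variation between replicates was 5.34% over 14949 genes as deposited and 3.83% over 14024 here, so the gene sets differ. Of 14024 genes with a known GC content and length, 1122 were called (8.0%), 649 higher (4.63%) and 473 lower (3.37%) in treated cells. With the GC trend alone removed the count was 659. Of 5404 genes of this set called as deposited, 4668 were no longer called, 698 were called in the same direction (390 higher, 308 lower) and 38 in the opposite direction. The median change of the genes called was 1.10-fold, and 270 genes (1.93%) had no overlap between groups. With total-count scaling in place of TMM the calls were 485 higher and 616 lower, so the balance of directions depends on the scaling. A change that itself followed GC content in the cells would be removed with the trend, and such a change cannot be told apart from a trend of the libraries.

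These calls leaned on 1 untreated library. Without Untreated replicate 1, the library with the steepest GC slope, 251 genes were called. Without replicate 2 the count was 512 and without replicate 3 it was 979. With the 5 compounds fitted as 1 group of 15, so that differences among compounds counted as error, 84 genes were called. Leaving out MS023 gave 613 and leaving out GSK-484 gave 1787. For a change specific to genes, calls in both fits in the same direction, no shared reads, a mean of 3 CPM or more in 1 of the groups, and untreated and treated libraries that do not overlap once trends are removed were required. These criteria left 110 genes, 62 higher and 48 lower in treated cells. Of these, 54 stayed called without Untreated replicate 1 and 32 with the compounds as 1 group. The criteria required the calls and the separation with the trends removed, so neither gives further support where these genes are described below.

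CIITA, the transcriptional master regulator of the major histocompatibility complex (MHC) class II genes, had the largest rise among these 110 genes. It measured 31.3, 29.5 and 27.3 CPM in the untreated libraries and 31.9 to 44.9 CPM (median 37.4) in the treated ones. Every treated library was above every untreated one. The rise was 0.37 ± 0.04 log2 (SE) with the trends removed (adjusted p = 2.54e-05 in edgeR) and 0.37 ± 0.06 as deposited. Against the same 3 untreated libraries, MS023 gave 0.47, GSK-591 0.43, GSK-484 0.39, UNC0642 0.31 and TP-472 0.25. CIITA lies at chr16:10866222-10943021, and the call held under all 39 alternatives other than the 1.2-fold threshold. HLA-DMA, a subunit of the HLA-DM chaperone that loads peptides onto class II molecules, was also among the 10 largest rises. It measured 45.1, 50.5 and 51.1 CPM untreated and 54.4 to 66.4 CPM (median 60.0) treated, a rise of 0.24 ± 0.03 (adjusted p = 0.000302), and again the groups did not overlap.

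The other genes of the class II pathway were then examined as a list drawn up after these values had been seen, which therefore gives no independent support. Class II molecules are pairs of alpha and beta chains that present peptides from endosomes to CD4+ T cells, CD74 is their invariant chain, and RFX5, RFXANK and RFXAP form the complex on their promoters that recruits CIITA. Besides CIITA and HLA-DMA, 16 genes were tested, and with the trends removed 10 were called higher, 1 lower and 5 neither way (all genes: 4.63% higher, 3.37% lower). The median of the 16 was 0.18, beside 0.00 over all genes.

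HLA-DRA, the alpha chain of HLA-DR, measured 499, 513 and 557 CPM untreated and 546 to 653 CPM (median 584) treated. Untreated replicate 3 lay within the treated range, the other 2 below it, and the rise was 0.21 ± 0.02 (adjusted p = 2.77e-05). HLA-DPB1, a beta chain of HLA-DP, measured 94.9, 104.2 and 103.7 CPM untreated and 109.2 to 136.5 CPM treated, with no overlap, and rose by 0.27 ± 0.04 (adjusted p = 0.000144). HLA-DRB5 rose by 0.42 ± 0.06 (adjusted p = 0.000235) and HLA-DQA1 by 0.27 ± 0.05 (adjusted p = 0.00118). CD74, at 942 ± 47.9 CPM untreated (SD, n = 3) and 1119 ± 73.7 treated (SD, n = 15), was called as deposited at 0.25 (adjusted p = 6.25e-05) but not with the trends removed at 0.10 (adjusted p = 0.097). Its transcript has 58.7% GC. RFXANK was called higher at 0.18 (adjusted p = 0.00951), RFXAP lower at -0.18 (adjusted p = 0.0238), and RFX5 was at 0.01 (adjusted p = 0.818). Of the 16 genes, 9 share reads with another gene, 8 of them HLA-D genes of the cluster on chromosome 6. Of the HLA-D genes and CD74, 5 share no reads, and of these HLA-DRA and HLA-DMB were called. Without Untreated replicate 1, 4 of the 16 stayed called higher, HLA-DRA, HLA-DPB1, HLA-DQA1 and HLA-DRB5, and with the compounds as 1 group 3 were, HLA-DRA, HLA-DPB1 and HLA-DRB5. The class II genes differed among the compounds too: 11 of the 16 were called in the test among the 5 compound groups, beside 35.5% of all genes.

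The other 8 of the 10 largest rises had varied roles. OPTN, an autophagy receptor, measured 62.6, 64.1 and 64.4 CPM untreated and 68.05 to 76.1 CPM (median 71.4) treated, a rise of 0.23 ± 0.02 (adjusted p = 3.88e-06). The 3 untreated values lay close together and below all treated ones. STX8, an endosomal SNARE protein gene, rose by 0.26 ± 0.04 (adjusted p = 0.000244) from 17.9 ± 1.07 to 21.1 ± 1.24 CPM. ETFB, the beta subunit of the electron transfer flavoprotein, rose by 0.32 ± 0.06 (adjusted p = 0.0044), and COMMD9, a subunit of the Commander endosomal recycling complex, by 0.27 ± 0.05 (adjusted p = 0.00425). Both calls were lost without Untreated replicate 1, which held the lowest level of each. WDR13 rose by 0.24, CAPS, a calcium-binding protein gene, by 0.28, and NGDN, a ribosome assembly factor, by 0.22. C2orf42, at 4.54 and 5.23 CPM, rose by 0.25 with an adjusted p of 0.0416, and the call held in 21 of 39 alternatives.

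**Figure D4:**
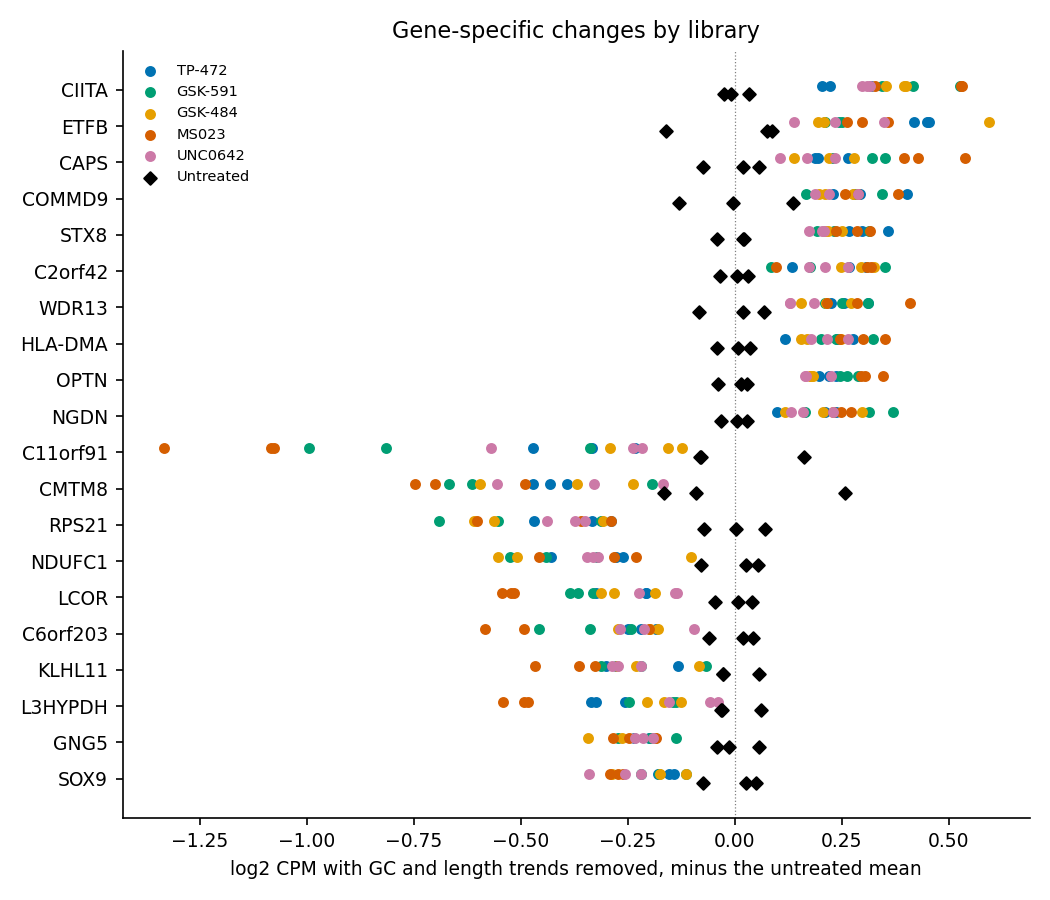
Log2 CPM of the 10 largest rises and 10 largest falls with GC and length trends removed, minus the untreated mean of each gene, with 1 point per library (black diamonds, 3 untreated; coloured circles, 15 treated). For each of the 20 genes the treated points lie wholly to 1 side of the untreated ones, as the choice of these genes required.

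LCOR, a corepressor of nuclear receptors, had overlapping groups before the trends were removed and separate groups after, where its choice required separation. Over all genes separation became rarer, with 1537 genes (10.3%) without overlap as deposited and 270 (1.93%) with the trends removed. The CPM of LCOR was 62.4, 52.5 and 50.1 in the untreated libraries and 32.2 to 54.9 (median 38.1) in the treated ones, so the groups overlapped. With the trends removed its log2 level was 5.70, 5.62 and 5.67 untreated and 5.12 to 5.53 treated, with no overlap. The fall was -0.31 ± 0.03 (adjusted p = 3.88e-06). It was deepest with MS023 at -0.53 and shallowest with UNC0642 at -0.16, against the same untreated libraries (adjusted p = 1.5e-05 for differences among the 5 compounds).

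SOX9, a transcription factor of the neural crest lineage and a marker of dedifferentiated melanoma, measured 40.9, 37.4 and 39.9 CPM untreated and 31.9 to 36.9 CPM (median 34.6) treated. The groups did not overlap, and the fall was -0.21 ± 0.04 (adjusted p = 0.000886 in edgeR). Of the 12 dedifferentiated melanoma markers, 2 were called lower with the trends removed, SOX9 among them, 0 higher and 10 neither way. Over all genes 4.63% were called higher and 3.37% lower. The median of the 12 was -0.02, so SOX9 does not stand for the list. NDUFC1, a subunit of mitochondrial complex I, fell by 0.35 on the log2 scale (SE 0.07, adjusted p = 0.00267) from 25.03 ± 2.07 to 19.3 ± 1.99 CPM. GNG5, a G protein gamma subunit, fell by 0.22 (adjusted p = 0.00018) and KLHL11, a substrate adaptor of CUL3 ubiquitin ligases, by 0.25 (adjusted p = 0.00273). L3HYPDH, a hydroxyproline dehydratase gene, fell by 0.25, from 0.51 with MS023 to 0.08 with UNC0642 in size. C11orf91 and CMTM8, both under 5 CPM, fell by 0.54 and 0.47, and without MS023 they were at -0.38 and -0.41 and not called (adjusted p = 0.0629 and 0.0648). For both the CPM of untreated and treated libraries overlapped before the trends were removed. C6orf203 fell by 0.28.

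Of the 20 genes of the rule, 9 kept their call under all 39 alternatives other than the 1.2-fold threshold: CIITA, WDR13, HLA-DMA, OPTN, RPS21, NDUFC1, LCOR, KLHL11 and GNG5. None of the 20 was called against a 1.2-fold change.

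Genes for cytosolic ribosomal proteins had the most calls of the lists with the trends removed. As deposited 24 of 84 were higher (28.6%) and 4 lower (4.76%), beside 18.1% and 19.4% of all genes. With the trends removed, 17 of 84 were higher (20.2%) and 6 lower (7.14%), beside 4.63% and 3.37% of all genes, and their median was 0.02. The counts were 4 and 2 without Untreated replicate 1. RPL4, a large subunit protein, rose by 0.15 ± 0.02 (adjusted p = 0.000263), from 2829 ± 148.2 CPM to 3028 ± 140.4 CPM. RPS21, the gene of a small subunit protein with a coding part of 198 bases, measured 508.6, 611.2 and 593.4 CPM untreated and 376.7 to 532.7 CPM (median 449.8) treated. It fell by 0.43 with the trends removed (SE 0.06, adjusted p = 0.000302), and the fall ranged from 0.36 with TP-472 to 0.51 with GSK-591. RPS29, another small subunit protein gene of 201 coding bases, was at -0.48 as deposited (adjusted p = 0.00395) and at -0.36 with the trends removed (adjusted p = 0.0757). It was also among the genes chosen for a call as deposited that was lost with the trends removed. Of the 10 ribosomal protein genes with at most 300 coding bases and no shared reads, 8 had a value below 0 with the trends removed. Of the 23 with more than 500 coding bases, 16 had a value above 0. Spearman's correlation between coding length and the change with trends removed was 0.434 over the 60 ribosomal protein genes without shared reads and 0.45 over 53 oxidative phosphorylation genes, which are descriptions across genes in the same libraries. Over 63 mitochondrial ribosomal protein genes it was -0.101 and over 34 proteasome genes -0.288. Over all genes the median was -0.03 for the 328 with at most 300 coding bases and 0.01 for the 3950 with more than 2000.

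Among the proteasome subunits, 8 of 37 were higher and 0 lower with the trends removed (21.6%, beside 4.63% higher and 3.37% lower over all genes), with a median of 0.04. As deposited 8 were higher (21.6%) and 7 lower (18.9%), near the 18.1% and 19.4% of all genes. PSMA6 was called at 0.10 (adjusted p = 0.00632) and PSMA5 at 0.18 (adjusted p = 0.00855), both subunits of the 20S core. Neither was called as deposited (adjusted p = 0.503 and 0.942), and the transcript of PSMA5 is GC-poor (37.3%). None of the 8 stayed called without Untreated replicate 1 or with the compounds as 1 group. Of 18 YAP and TEAD targets, 6 were lower (33.3%, beside 3.37% of all genes) and 0 higher, with a median of -0.05. CTGF, a matricellular protein gene, fell by 0.17 and NT5E, which encodes the ectoenzyme CD73, by 0.23, but NT5E was at 0.00 when MS023 was left out (adjusted p = 0.998). Without Untreated replicate 1, 2 of the 18 were called lower, and with the compounds as 1 group 0 were (for NT5E and CTGF the adjusted p was 0.801 and 0.368).

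The counts that follow are with the trends removed, where 4.63% of all genes were called higher and 3.37% lower. Of 63 oxidative phosphorylation genes, 5 were lower (7.94%) and 2 higher (3.17%), and NDUFB4, a complex I subunit, fell by 0.25 (adjusted p = 0.000849) from 159.2 ± 12.2 to 124.7 ± 10.7 CPM. Of 35 genes for extracellular matrix and receptors, 5 were lower (14.3%) and 2 higher (5.71%), among them ITGB5, an integrin chain, at 0.11 (adjusted p = 0.00587) and SDC1, a cell surface proteoglycan, at -0.14 (adjusted p = 0.000302 in edgeR). Of 26 serum and MAPK immediate-early genes 4 were lower (15.4%) and 0 higher, among them IER3 at -0.13 (adjusted p = 0.00425). Of 25 heat shock and chaperone genes 4 were higher (16%) and 2 lower (8%), among them the constitutive chaperone HSPA8 at 0.08 (adjusted p = 0.00549). SDC1, IER3 and HSPA8 were not called as deposited (adjusted p = 0.658, 0.652 and 0.0953). Of 19 nuclear and snoRNA host lncRNAs 1 was higher (5.26%) and 2 lower (10.5%). ZFAS1 fell by 0.35 (adjusted p = 0.000144) and SNHG7 by 0.28 (adjusted p = 0.000271), both hosts of small nucleolar RNAs that share reads with other genes. SNHG7 was not called as deposited (adjusted p = 0.845). NEAT1, the scaffold of paraspeckles, was called at 0.16 (adjusted p = 0.022), with 0.51 for MS023 and -0.02 to 0.20 for the other 4 compounds. CNOT3, a subunit of the CCR4-NOT deadenylase, rose by 0.17 (adjusted p = 0.00227). Without Untreated replicate 1 the calls were 1 higher and 4 lower for oxidative phosphorylation, 0 and 1 for matrix, 0 and 3 for immediate-early genes, 0 and 0 for chaperones, and 0 and 2 for the lncRNAs.

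Genes that share reads were more common among the largest shifts. An expected count that was not whole in at least 9 of the 18 libraries was found for 19.9% of all genes tested. The share was 34.0% among the 341 genes shifted at least 1.5-fold, called or not, and 46.3% among the 82 shifted at least 2-fold. With genes added that have at least 20% of their 31-base words in another gene, the definition of sharing reads used throughout, these shares were 22.02%, 41.6% and 67.1%. All of the 9 genes called against a 1.2-fold change share reads by this definition: EIF3C, EIF3CL, NOMO3, MINOS1-NBL1, TNFAIP8L2-SCNM1, SERF2-C15ORF63, IDUA, BCYRN1 and HNRNPH2. The 31-base word criterion was set after these values had been seen, so this count and the wider shares give no independent support. MINOS1-NBL1 was at 0 in 14 treated libraries and passed the filter on low counts only through its untreated counts.

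EIF3C and EIF3CL are near-identical copies for a subunit of translation initiation factor 3, at chr16:28688558-28735730 on the plus strand and chr16:28379579-28403879 on the minus strand of hg38. Their annotated coding parts of 2739 and 2742 bases differ by 0 substitutions and 1 insertion of 3 bases, in capitals in the coding stretch below.
EIF3C: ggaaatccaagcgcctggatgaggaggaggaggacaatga
EIF3CL: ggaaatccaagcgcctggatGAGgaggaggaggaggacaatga
A read clear of this repeat and of the untranslated ends therefore fits both genes. EIF3C held 16.3, 16.4 and 19.9% of the summed counts of the pair in the untreated libraries and 1.54 to 6.06% (median 3.21%) in the treated ones. The groups did not overlap, and the share was 17.5 ± 2.08% (SD, n = 3) untreated and 3.50 ± 1.54% (SD, n = 15) treated, a description with no test, since EIF3C was named for its fall between these same libraries. The 2 fitted changes were -2.24 ± 0.18 for EIF3C (adjusted p = 4.79e-07) and 0.40 ± 0.03 for EIF3CL (adjusted p = 9.12e-08). Summed as 1 gene, the pair rose by 0.17 ± 0.03 (adjusted p = 4.44e-05 as deposited). The share was 1.26 to 2.01% in the 3 JQ-1 libraries.

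NOMO1, NOMO2 and NOMO3 are copies for a membrane protein of the endoplasmic reticulum on chromosome 16. Their coding parts have 3666 bases each, and NOMO3 differs from NOMO1 at 16 of them and from NOMO2 at 9. One substitution that sets NOMO3 apart from both is G1185A, counted from the first coding base, with the base in capitals here.
NOMO1: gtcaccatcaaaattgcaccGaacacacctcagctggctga
NOMO2: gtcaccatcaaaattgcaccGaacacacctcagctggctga
NOMO3: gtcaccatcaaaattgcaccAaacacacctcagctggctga
NOMO3 took 6.67, 3.58 and 1.17% of the summed counts of the 3 genes in the untreated libraries. It was listed at 0 in 11 of the 15 treated libraries and took at most 0.597% in the others. NOMO1 was at 0.05 (adjusted p = 0.372) and NOMO2 at 0.18 (adjusted p = 9.58e-05), and the sum of the 3 was at 0.07 (adjusted p = 0.102). The groups did not overlap in the share of NOMO3, although the untreated libraries differed widely among themselves.

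TNFAIP8L2-SCNM1 is a read-through symbol of 2 neighbouring genes, of which SCNM1 encodes a splicing factor. It took 0.00621, 9.57 and 0.908% of the summed counts of the 3 symbols in the untreated libraries and 14.96 to 84.6% (median 48.4%) in the treated ones. SCNM1 fell in turn, from 24.8 ± 1.01 to 14.2 ± 6.54 CPM (-0.84, adjusted p = 0.0328 in edgeR as deposited and 0.062 with the trends removed), and the sum was 25.8 ± 2.45 CPM untreated and 29.7 ± 1.71 CPM treated. MINOS1-NBL1, another read-through symbol, took 7.94, 0.316 and 5.46% untreated, was listed at 0 in 14 treated libraries and took 2.09% in the last, a UNC0642 library. Of 102 read-through symbols with at least 100 counts over the 3 symbols in every library, TNFAIP8L2-SCNM1 alone had no overlap between groups, and 8 differed by more than 5 percentage points in the mean.

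**Figure D5:**
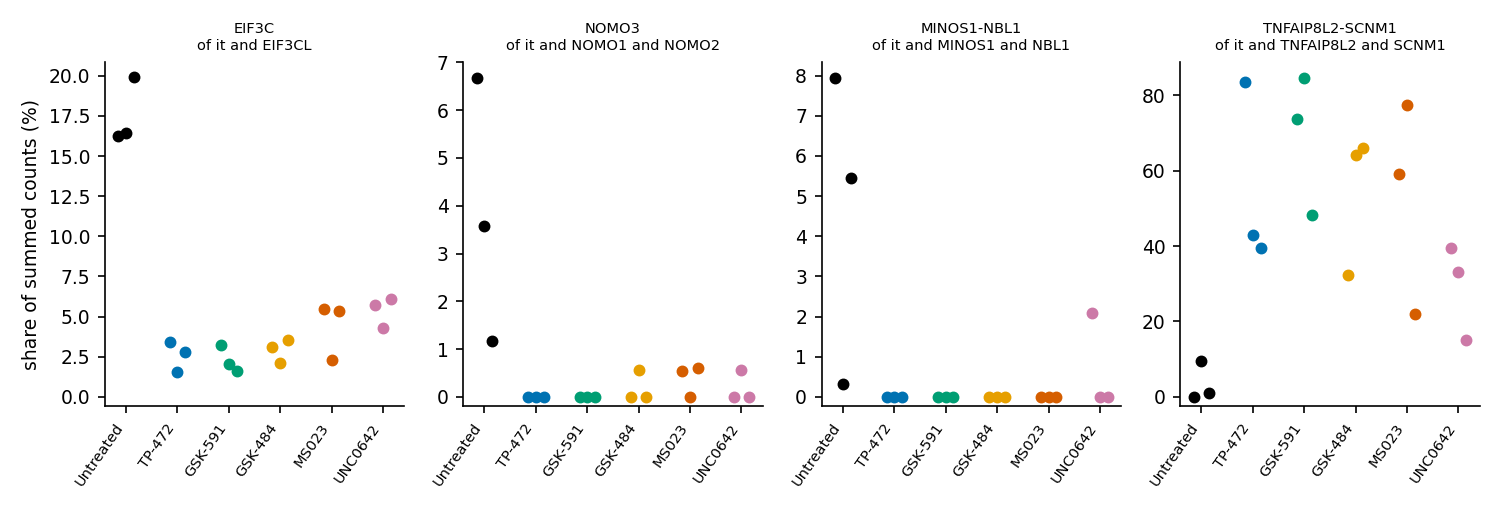
Share of summed expected counts (percent) taken by EIF3C, NOMO3, MINOS1-NBL1 and TNFAIP8L2-SCNM1 among the genes named above each panel, with 1 point per library in the untreated group and the 5 compounds. EIF3C and NOMO3 are higher in all 3 untreated libraries than in any treated one, TNFAIP8L2-SCNM1 is lower, and MINOS1-NBL1 overlaps.

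Of 329 families of near-identical genes (772 tested members that share at least 50% of their 31-base words), 63 had a member shifted at least 1.5-fold. Of the members, 21 were both shifted by that much and called. Summing each family to 1 gene left 4 of the 63 shifted by that much and 28 called, beside 37.5% of all genes tested. The 63 families were picked for the shift of a member, so the smaller number after summing is a description with no test. BCYRN1, a short RNA polymerase III transcript of 200 bases at chr2:47335315-47335514, measured 6.66, 6.95 and 7.34 CPM untreated and 0.972 to 3.83 CPM treated, with no overlap. It shares 31-base words with transcripts of BUB3, C5orf63 and ZNF3. IDUA, a lysosomal enzyme gene that shares reads with SLC26A1, rose by 0.78 as deposited and 0.50 with the trends removed (adjusted p = 0.00399), and the sum of both genes was 2.67 ± 0.278 CPM untreated and 3.99 ± 0.486 CPM treated.

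The compounds also differed among themselves. The test of the 5 compound groups being equal, which uses no untreated library in its contrast, called 5115 genes (34.2%) as deposited and 4972 (35.5%) with the trends removed. Removal of the trends thus lowered the count against untreated cells far more than the count among compounds. Of the 1122 genes called against untreated cells with the trends removed, 684 were also called among the compounds. Of 534 called in both fits in the same direction and sharing no reads, 190 were not called among the compounds, 119 higher and 71 lower. HLA-DMA, STX8, COMMD9, RPS21, NDUFC1, GNG5 and SOX9 are among these 190, with adjusted p among compounds of 0.25, 0.23, 0.693, 0.47, 0.833, 0.59 and 0.076. A p above the threshold does not show that the compounds act alike.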

How the data were processed

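RNA of 21 SK-MEL-147 samples was poly-A selected and sequenced on an Illumina instrument, per the labels' protocols. The deposited values are expected counts per gene, made by the authors with Bowtie2 2.1.0, RSEM 1.2.15 and hg38, per the submitters' processing notes. They were rounded to whole numbers for the tests.

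Genes were filtered with edgeR's filterByExpr (14949 of 26475 kept), scaled with TMM factors and tested with edgeR 4.0.16 (quasi-likelihood, R 4.3.3). The model had 1 term per group over 18 libraries, and the contrast was the mean of the 5 compound groups minus the untreated group. Calls had a Benjamini-Hochberg adjusted p under 0.05 over all genes tested. GC content and length came from the longest basic GENCODE 29 transcript (23900 symbols matched, and 23 by an older or newer symbol), and 14024 of the genes tested (93.8%) had both. In each library a spline of GC content plus one of length was fitted to the log2 CPM deviations (mgcv 1.9.3, 10 basis functions each, prior count 2) and entered as an offset. Differences among the 5 compounds were an F test of the same model. The fits were tested on simulated data. Slopes, library totals and the ribosomal share were compared by two-sided exact permutation of the 18 libraries. The libraries of a compound were taken as independent there. The shares of summed counts held by genes that share reads are given without a test.

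Members and gene lists were chosen with earlier results of these data known. The 31-base word criterion for shared reads and the class II list were set after these values had been seen. Genes named were the 10 largest rises and falls among gene-specific calls, 4 per direction for the trend and for shared reads, up to 3 per list with at least 3 calls, and the compound targets. HLA genes other than HLA-DMA, EIF3CL, NOMO1, NOMO2, SCNM1, HNRNPH2 and SERF2-C15ORF63 were chosen after their values were seen. Alternatives covered the test, scaling, filter, depth, replicate number, gene models, trends, thresholds, libraries and compounds.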

Additional observations from a re-analysis of the deposited data

Results flagged for a closer look

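Some genes described above differed among the 5 compounds themselves, tested as an F test of equal compound groups with the trends removed (edgeR, adjusted p over all genes, 35.5% of which pass). The mean over compounds describes these genes less well than the others. NT5E had the smallest adjusted p (7.34e-18), with -1.13 for MS023 and -0.11 to 0.16 for the other 4. CTGF followed (1.57e-08), with -0.45 for TP-472 and -0.19 to -0.01 for the others, and NEAT1 (6.74e-07). Among the falls the adjusted p was 1.5e-05 for LCOR, 3.46e-05 for L3HYPDH and 0.000318 for C11orf91. Among the rises it was 0.000874 for CAPS, 0.00426 for OPTN and 0.0108 for CIITA. In the class II group it was 9.93e-05 for HLA-DRA, 0.00157 for HLA-DMB, 0.00244 for HLA-DQA1, 0.00298 for HLA-DPB1, 0.0241 for CD74, 0.0123 for RFX5 and 0.0196 for RFXAP. It was 0.000124 for SDC1, 0.000674 for RPL4, 0.0148 for HSPA8 and 0.032 for PSMA5. Of the genes that followed GC content it was 0.00128 for VPS13A, where UNC0642 was at 0.10 and the other 4 compounds at -0.36 to -0.13, and 0.000436 for BRD9. Of the genes with shared reads it was 0.00121 for EIF3CL, 0.00929 for EIF3C, 0.0202 for NOMO2 and 0.0467 for HNRNPH2. It was 0.00683 for SOX10, 0.02 for AXL, 0.0056 for PRMT1 and 0.00478 for PRMT3.

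The JQ-1 libraries, which entered no comparison, had GC slopes of 0.0139, 0.0177 and 0.0198 log2 per 10 percentage points, a mean of 0.0171. This lies within the range of the treated libraries and above all 3 untreated ones.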

How the results depend on the processing

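With counts as deposited, 3461 genes were called with the compounds as 1 group, 659 with the GC trend alone removed, 9 against a 1.2-fold change, and 3313 (without Untreated replicate 1) to 5793 when 1 library was left out. With both trends removed the count was 84 with the compounds as 1 group, 524 with libraries thinned to the smallest, 4 against a 1.2-fold change, 659 with the GC trend alone and 5538 with the length trend alone removed, 1787 without GSK-484 and 613 without MS023, and 251 (without Untreated replicate 1) to 1535 with 1 library left out. DESeq2 called 5592 and 1264 genes. The share of higher calls with trends removed, 57.8%, was 44.1% with total-count scaling (38.8% in place of 48.3% as deposited), 71.7% with all 21 libraries in the fit and 69.9% with genes that share reads set aside, the last chosen after seeing the data. Differences among compounds ran from 3167 (without UNC0642 replicate 2) to 6030. Without 1 untreated library the GC slope difference ran from 0.1292 to 0.1705 and the length slope difference from -0.0673 to -0.02195. For GC content the exact permutation p was 0.00735 each time, the smallest that the libraries left allow. Trends took 75.31% of the variance at 10 CPM or more. Genes with counts not whole made up 47.51% of large shifts when any library sufficed, beside 27.33% of all genes tested. With at least 9 libraries required they made up 46.34% at 2-fold, beside 19.85% of all genes tested.

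The replicate number as a block gave 5470 calls as deposited, 1057 with trends removed and 4780 among compounds. No pairing by number was seen: same-numbered libraries of different groups correlated at -0.165 to 0.137 and differently numbered ones at -0.147 to 0.153. Of 18 libraries, 4 correlated best with their own number. These values cannot show that the samples were unpaired, and the labels do not describe it.

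Directions that reversed were NT5E without MS023 (0.0002183), CNOT2 (0.1501) and CARM1 (-0.07005) as deposited once the GC trend was removed, VEGFA with mean gene models (-0.04788), and, with the length trend alone removed, PSMA6 (-0.02614), PSMA5 (-0.0002722), BIRC3 (-0.05326), IL1A (-0.1229), HMMR (-0.05929), SDC1 (0.01028), NOP58 (-0.01651), CNOT2 (-0.06499) and XRN2 (-0.02656). The cause was not tested. Of 96 named genes called with trends removed, 23 kept the call in every alternative but the 1.2-fold threshold.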
